A study of Mus musculus with 1666 samples.

Results

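The ligands Tgfb1, Tgfb2 and Tgfb3 and the receptors Tgfbr1, Tgfbr2 and Tgfbr3 were followed through the formation of the mouse whisker follicle, from day E11.5 of embryonic development to E17.0. These 6 genes were taken by symbol from a table of 49662 gene symbols, and each has 1 row. The table holds 1614 single cells from 18 plates and 7 stages, each profiled by RamDA-seq, a full-length method that reads total RNA, so that transcripts without a poly(A) tail are counted as well. The mice carried a transgene for nuclear Kikume Green-Red, a protein that turns from green to red under light. From E12.0 onward a whole whisker follicle was converted and its red cells that were positive for integrin alpha 6 (ITGA6) and negative for the endothelial protein CD31 were sorted as single cells, whereas at E11.5 cells were sorted on ITGA6 and CD31 alone. All groups thus share the transgene and the ITGA6 and CD31 gates, and the E11.5 group differs from the others in its sort, so that sort and stage cannot be told apart there. The promoter of the transgene, the strain and the number of embryos are not given in the sources used here.

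Cells were placed in classes by 4 marker genes. Epithelial cells had Krt5 and Trp63 (keratin 5 and the basal factor p63) at 10 TPM or more and Col3a1 (collagen III) under 50 TPM. Fibroblast-like cells had Col3a1 at 50 TPM or more, Pdgfra at 10 TPM or more and Trp63 under 10 TPM. TPM, a relative abundance, is scaled for gene length and for the total of each cell and keeps no read depth. In all, 1035 cells were epithelial, 417 were fibroblast-like and 162 fell in neither class. From E11.5 to E17.0 the epithelial cells numbered 54, 267, 53, 159, 144, 178 and 180, and the fibroblast-like cells 14, 0, 210, 2, 19, 126 and 46. The sort was aimed at basal epidermal cells, so the fibroblast-like cells go against that label. Genes that the rule did not use were read to check both classes. The medians of the 8 basal epithelial markers outside the rule were above 10 TPM in the epithelial cells, among them Krt14 at 279 TPM and Epcam at 42.5 TPM, and Krt14, Epcam and Cdh1 had a median of 0 in the fibroblast-like cells. Col1a1 had a median of 959 TPM in fibroblast-like and 0.167 TPM in epithelial cells. Itga6, the transcript of the sorting marker, had a median of 78.1 TPM in epithelial and 9.45 TPM in fibroblast-like cells. The classes are ranges of marker level: 23 epithelial and 9 fibroblast-like cells lay within 2-fold of a threshold, and 4 cells met the epithelial minimums together with Col3a1 at 50 TPM or more and were left in neither class.

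Transforming growth factor beta (Tgf-beta) is secreted as a latent complex that must be released from its prodomain and from the latent binding proteins of the matrix before it can signal. The free dimer binds the type II receptor Tgfbr2, which phosphorylates the type I receptor Tgfbr1, and this in turn phosphorylates Smad2 and Smad3, which enter the nucleus with Smad4. Tgfbr3, or betaglycan, is a coreceptor that has no kinase of its own and presents ligand, Tgfb2 above all, to the type II receptor. In skin, Tgf-beta is known to restrain keratinocyte division and to drive matrix production by fibroblasts, and Tgfb2 is known to take part in early follicle growth.

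All 6 genes are protein-coding in the GENCODE M21 annotation of GRCm38 (mm10), the build named in the submitters' processing notes. Tgfb1 lies at chr7:25687002-25705077 on the plus strand, Tgfb2 at chr1:186622792-186705989 on the minus strand and Tgfb3 at chr12:86056745-86079041 on the minus strand. Tgfbr1 lies at chr4:47353222-47414931 on the plus strand, Tgfbr2 at chr9:116084293-116175360 on the minus strand and Tgfbr3 at chr5:107106570-107289629 on the minus strand. No other annotated gene overlaps Tgfb1, Tgfbr1 or Tgfbr2. Tgfb2 overlaps 2 predicted genes on the opposite strand, Tgfb3 overlaps Ttll5 and 2 predicted genes on the opposite strand, and Tgfbr3 overlaps 3 predicted genes on its own strand and 1 on the other. Whether strand was used in counting is not given in the sources used here, so reads from these partners cannot be told apart from those of the 3 genes.

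RefSeq promoter sequences (GRCm38.p6) matched 4 of the 6 genes, Tgfb1, Tgfb2, Tgfbr1 and Tgfbr2. Those of Tgfb2 and Tgfbr2 are shown because these are the leading ligand of the epithelium and the receptor that binds it, the pair whose cells are compared further on. Each line gives the 250 bases before the start site, 5′ to 3′ on the gene's own strand, at chr1:186705990-186706239 for Tgfb2 and chr9:116175364-116175613 for Tgfbr2, with motif matches in capitals.
Tgfb2: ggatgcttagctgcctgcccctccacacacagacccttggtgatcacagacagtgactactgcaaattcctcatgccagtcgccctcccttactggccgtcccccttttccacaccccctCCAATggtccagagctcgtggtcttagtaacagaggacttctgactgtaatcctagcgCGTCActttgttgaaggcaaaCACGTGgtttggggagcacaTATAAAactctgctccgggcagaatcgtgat
Tgfbr2: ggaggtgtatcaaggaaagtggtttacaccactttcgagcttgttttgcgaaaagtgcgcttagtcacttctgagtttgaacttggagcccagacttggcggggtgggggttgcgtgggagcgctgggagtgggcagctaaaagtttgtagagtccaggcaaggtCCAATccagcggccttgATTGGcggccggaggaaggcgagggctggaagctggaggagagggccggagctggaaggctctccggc
The motifs searched, on both strands, were the TATA box TATAAA, the E-box CACGTG, the cAMP response element core TGACG, the CCAAT box and the GC box GGGCGG, none of which overlapped another in these windows. Tgfb2 held a TATA box starting 31 bases before the start site, an E-box at 51, a response element core at 72 on the opposite strand (CGTCA) and a CCAAT box at 130. Tgfbr2 held CCAAT boxes at 85 and 68 and none of the other motifs. Among the 32851 promoters of the same length, 12.4% held the TATA box, 6.02% the E-box, 17.8% the response element core, 33.8% the CCAAT box and 32.7% the GC box. Tgfb1 held 5 GC boxes and no other of these motifs, with 75.2% of its window G or C against a median of 52.4% over all promoters.

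The labels name no embryo or litter. A stage was therefore counted as 1 sample, with plate means giving the spread within a stage, which may be technical. A stage mean weights the plates with at least 5 cells of the class equally. Differences were tested over stages with limma on log2(mean TPM + 1), adjusted by Benjamini-Hochberg over all genes tested and read at an adjusted p of 0.05. Fold changes on this scale understate the change of low genes.

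Tgfb2 was the ligand with the highest transcript level in the epithelium from E13.0 onward. In epithelial cells its stage mean was 0.512 TPM at E11.5 (1 plate), 9.81 TPM at E12.0, 127 TPM at E13.0, 165 TPM at E13.5, 180 TPM at E14.0, 188 TPM at E15.0 and 150 TPM at E17.0. Its SD over plates was 3.54 TPM at E12.0 (3 plates), 42.8 TPM at E13.0 (3 plates), 24.1 TPM at E13.5 (2 plates), 14.96 TPM at E14.0 (2 plates), 18.8 TPM at E15.0 (4 plates) and 27.2 TPM at E17.0 (3 plates). The 3 plates of E12.0 lay between 5.94 and 12.9 TPM and those of E13.0 between 80.5 and 165 TPM, with no overlap. In order of level, E13.0, E17.0, E13.5, E14.0 and E15.0 followed each other, and the plates of neighbours in this order overlapped, whereas those of E13.0 lay below those of E14.0 and E15.0. From E12.0 to E13.0 the mean differed 12.9-fold, or by 3.56 on the log2(TPM + 1) scale, which rests on 1 sample per stage and was not tested as a step.

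The change in Tgfb2 was one of both the share of cells and their level. At E11.5 the median cell was at 0 and 14.8% of epithelial cells reached 1 TPM (exact 95% interval 6.62 to 27.1%). At E12.0 61.05% of cells reached 1 TPM but only 20.6% reached 10 TPM, with a median of 2.13 TPM and a highest cell at 225 TPM. From E13.0 onward 63.5 to 88.8% of cells per stage reached 10 TPM. At E13.5 the middle of the distribution was wide, with a lower quartile of 1.87 TPM, a median of 125 TPM and a highest cell at 794 TPM.

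Tgfb3 showed its main difference at the same step and at lower level. Its epithelial mean was 1.37 TPM at E11.5, 3.36 ± 0.318 TPM at E12.0 (SD, n = 3 plates), 48.8 ± 12.1 TPM at E13.0 (n = 3), 30.7 ± 4.88 TPM at E13.5 (n = 2), 53.1 ± 0.602 TPM at E14.0 (n = 2), 37.4 ± 7.63 TPM at E15.0 (n = 4) and 31.7 ± 3.43 TPM at E17.0 (n = 3). All plates of E12.0, at 3.06 to 3.69 TPM, lay below all plates of the later stages, whose lowest was 27.3 TPM. Only 7.12% of epithelial cells reached 10 TPM at E12.0 (19 of 267), against 75.5% at E13.0 (40 of 53). From E13.5 onward between 46.5 and 62.9% of cells per stage did so, so that many epithelial cells held little Tgfb3.

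Tgfb1 followed another course. Its epithelial mean was 6.85 TPM at E11.5, 31.03 ± 4.92 TPM at E12.0 (SD, n = 3 plates), 11.9 ± 1.90 TPM at E13.0 (n = 3), 12.7 ± 0.756 TPM at E13.5 (n = 2), 24.9 ± 1.71 TPM at E14.0 (n = 2), 18.3 ± 1.97 TPM at E15.0 (n = 4) and 24.5 ± 2.01 TPM at E17.0 (n = 3). E12.0 was the highest stage, with plates from 27.4 to 36.6 TPM that lay above all other plates of epithelial cells, and E13.0 and E13.5 did not differ beyond the spread of their plates. The share of epithelial cells at 10 TPM or more was 82.02% at E12.0 and 43.4% at E13.0. Tgfb1 made up 70.2% of the summed ligand TPM at E12.0 and 6.36% at E13.0, while Tgfb2 went from 22.2 to 67.6%. The summed level of the 3 ligands was 44.2 TPM at E12.0 and 187 TPM at E13.0.

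**Figure D1:**
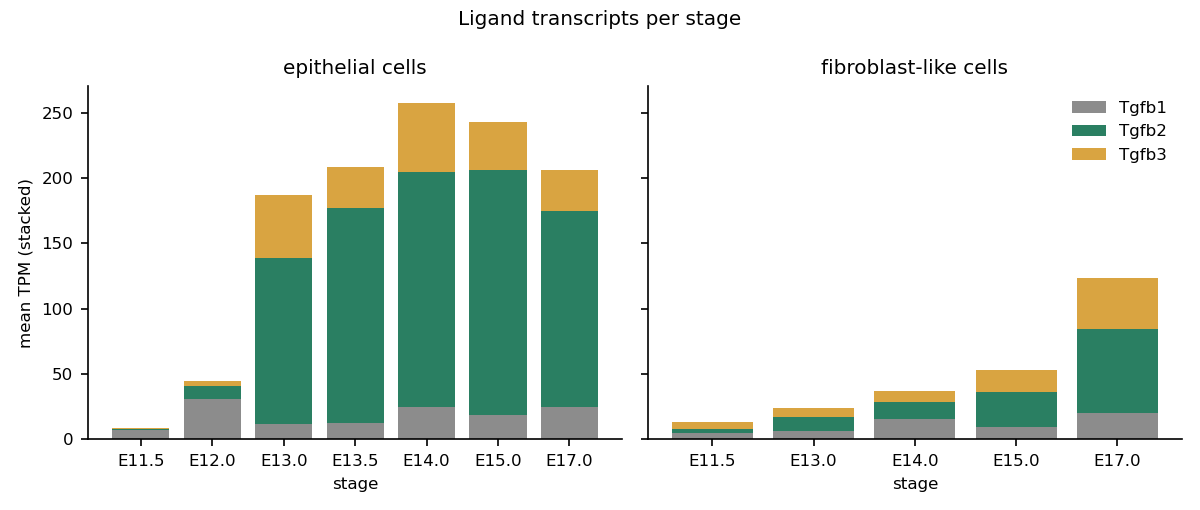
Stacked mean TPM (vertical axis) of Tgfb1, Tgfb2 and Tgfb3 at each stage (horizontal axis) in epithelial cells (left) and fibroblast-like cells (right); stages with fewer than 10 cells of a class are left out. In the epithelial cells the sum went from 44.2 TPM at E12.0, most of it Tgfb1, to 187 TPM at E13.0, most of it Tgfb2, whereas the sum in fibroblast-like cells was 123 TPM at E17.0.

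Tgfbr1 was the most even of the 6 genes. Every epithelial and every fibroblast-like cell held it at 1 TPM or more. Its epithelial stage means lay between 28.02 TPM at E15.0 and 48.5 TPM at E13.0, and its fibroblast-like means between 35.4 TPM at E13.0 and 60.7 TPM at E17.0. Plates of E12.0, E14.0, E15.0 and E17.0 overlapped in the epithelial cells, at 23.96 to 33.9 TPM, and the 3 plates of E13.0, at 43.4 to 56.9 TPM, lay above those of all other stages.

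Tgfbr2, without which Tgf-beta cannot be bound for signalling, was low in most epithelial cells. Its epithelial mean was 1.74 TPM at E11.5, 1.08 ± 0.0909 TPM at E12.0 (SD, n = 3 plates), 1.16 ± 0.423 TPM at E13.0 (n = 3), 4.41 ± 1.202 TPM at E13.5 (n = 2), 9.03 ± 1.35 TPM at E14.0 (n = 2), 7.39 ± 4.74 TPM at E15.0 (n = 4) and 7.03 ± 2.19 TPM at E17.0 (n = 3). The median epithelial cell stayed at 1.46 TPM or less at every stage. From E11.5 to E13.0, 0 of 374 epithelial cells reached 10 TPM, which allows a share of up to 0.802% if 3 cells are taken as the limit (exact 95% upper limit 0.981%), and from E13.5 to E17.0, 127 of 661 did (19.2%, exact 95% interval 16.3 to 22.4%). At E17.0 the highest cell held 84.3 TPM and the upper quartile was 4.85 TPM. The level at E15.0 depended on 1 plate: plate 1 held 10 epithelial cells with a mean of 0.724 TPM, and without it the stage mean was 9.61 TPM.

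Tgfbr3 was lowest in the epithelium at the last stage. Its epithelial mean was 11.2 TPM at E11.5, 14.5 ± 1.39 TPM at E12.0 (SD, n = 3 plates), 5.06 ± 0.915 TPM at E13.0 (n = 3), 15.8 ± 0.823 TPM at E13.5 (n = 2), 18.1 ± 1.48 TPM at E14.0 (n = 2), 5.93 ± 1.74 TPM at E15.0 (n = 4) and 1.90 ± 0.525 TPM at E17.0 (n = 3). The share of epithelial cells at 10 TPM or more was 61.05% at E12.0 and 5.56% at E17.0. At E14.0 the cells were spread widely, with a lower quartile of 0, a median of 1.59 TPM and an upper quartile of 26.3 TPM.

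**Figure D2:**
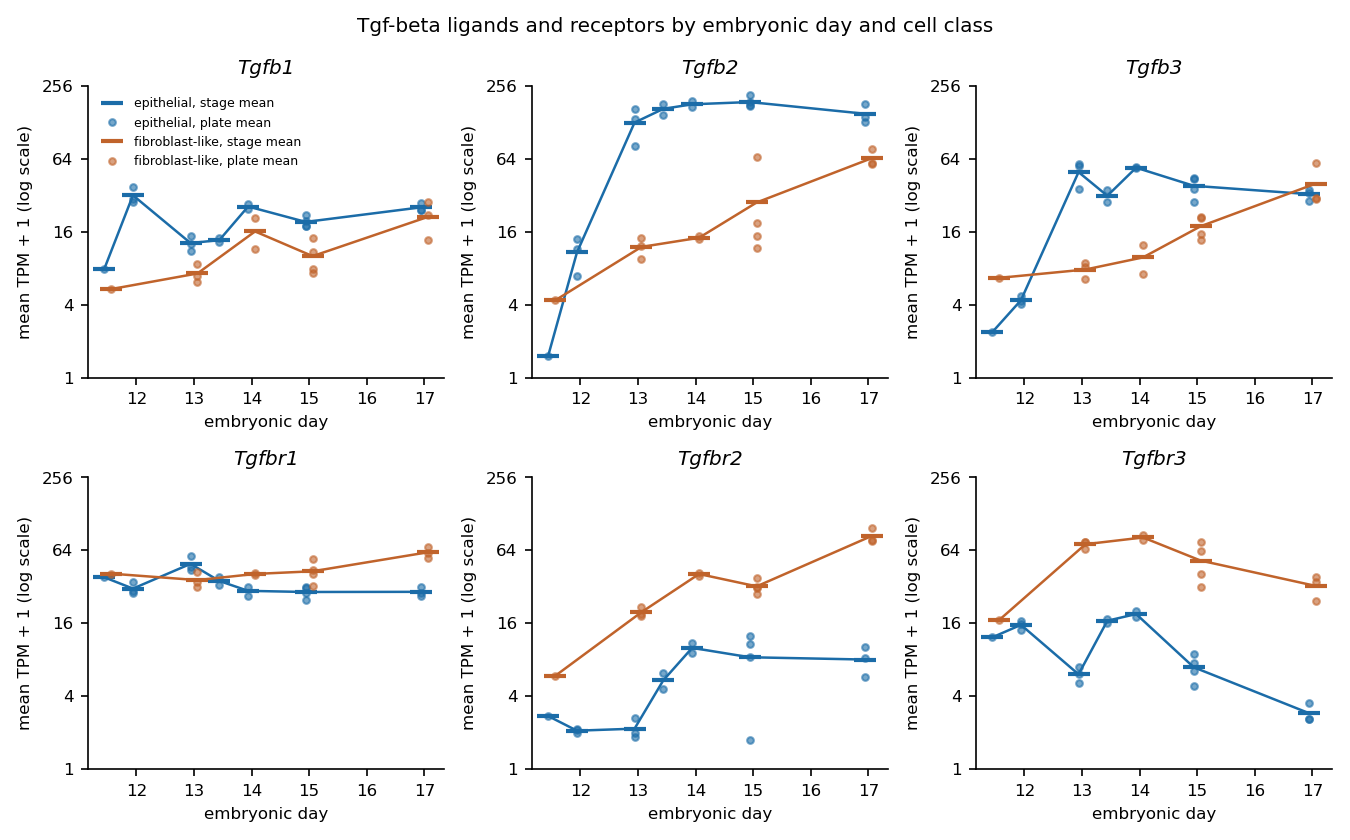
Mean TPM + 1 on a log axis (vertical) by embryonic day (horizontal) for each of the 6 genes, in epithelial cells (blue) and fibroblast-like cells (orange); points are plate means and bars joined by lines are stage means, shown where a class has at least 10 cells. Tgfb2 and Tgfb3 in epithelial cells step up between E12.0 and E13.0, Tgfbr2 and Tgfbr3 stand higher in fibroblast-like cells, and Tgfbr1 changes least.

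A linear trend with embryonic day over the 7 epithelial stage means was called for 0 of the 6 genes. Over all genes, 443 of 23671 were called (1.87%), 290 of them rising and 153 falling, and 4463 had an unadjusted p under 0.05, as did 4 of the 6. The slope of Tgfb2 was 1.04 per day on the log2 scale (SE 0.37, adjusted p = 0.191 by limma) and that of Tgfb3 0.64 (SE 0.27, adjusted p = 0.253). The slope of Tgfbr2 was 0.40 (SE 0.13, adjusted p = 0.152) and that of Tgfbr3 -0.37 (SE 0.14, adjusted p = 0.225). Tgfb1 and Tgfbr1 had slopes of 0.17 (SE 0.13, adjusted p = 0.509) and -0.08 (SE 0.05, adjusted p = 0.480). When stages were ranked and the rank replaced the day, Tgfbr2 passed the test (slope 0.39 per rank, adjusted p = 0.0472 by limma), in a fit that called 1412 genes. Sox9 had a slope of 0.59 (SE 0.20, adjusted p = 0.180) and an epithelial mean that went from 11.8 TPM at E12.0 to 52.5 TPM at E13.0.

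The receptors Tgfbr2 and Tgfbr3 were higher in fibroblast-like than in epithelial cells at every stage compared. In fibroblast-like cells the mean of Tgfbr2 was 4.88 TPM at E11.5 (1 plate), 18.8 ± 1.84 TPM at E13.0 (SD, n = 3 plates), 39.8 ± 1.66 TPM at E14.0 (n = 2), 31.3 ± 4.20 TPM at E15.0 (n = 4) and 83.3 ± 11.6 TPM at E17.0 (n = 3). Its plates did not overlap with those of epithelial cells at any of these stages. Over the 5 stages the difference was 2.33 on the log2 scale (SE 0.35, adjusted p = 0.00647 by limma), and it was 16.2-fold at E13.0 and 11.8-fold at E17.0.

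The fibroblast-like mean of Tgfbr3 was 15.99 TPM at E11.5, 70.97 ± 5.08 TPM at E13.0 (SD, n = 3 plates), 80.8 ± 5.20 TPM at E14.0 (n = 2), 51.7 ± 19.9 TPM at E15.0 (n = 4) and 31.5 ± 7.14 TPM at E17.0 (n = 3). The difference from epithelial cells was 2.51 on the log2 scale (SE 0.46, adjusted p = 0.0130 by limma). It was smallest at E11.5, 1.42-fold, and 14.02-fold at E13.0 and 16.6-fold at E17.0. Tgfbr1 was also higher in fibroblast-like cells at E14.0, E15.0 and E17.0 but not at E13.0, and its difference of 0.35 (SE 0.21) was not called (adjusted p = 0.278). With plates as units and the plate as a block it was called (0.40, adjusted p = 0.0404 by limma). That fit takes plates of 1 stage as independent and called 11921 of 24308 genes, all 6 members among them.

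Tgfb1 was lower in fibroblast-like cells at all 5 stages, by 0.26 to 0.94 on the log2 scale. Its fibroblast-like mean was 4.38 TPM at E11.5, 6.24 ± 1.30 TPM at E13.0 (SD, n = 3 plates), 15.1 ± 6.52 TPM at E14.0 (n = 2), 9.07 ± 3.15 TPM at E15.0 (n = 4) and 20.2 ± 7.24 TPM at E17.0 (n = 3). The mean difference was -0.65 (SE 0.13, adjusted p = 0.0165 by limma), although the plates of the classes overlapped at E17.0. This call was lost without E13.0 (adjusted p = 0.0533), E14.0 (0.0647) or E15.0 (0.0698), without plate 2 of E14.0 alone (0.0647), which leaves too few fibroblast-like cells to keep that stage, under the stricter class rule (0.0710) and without the stage block (0.346), while the call of Tgfbr3 was lost without E15.0 (0.0528) and that of Tgfbr2 held under all 28 alternatives (highest adjusted p = 0.0415).

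Tgfb2 was lower in fibroblast-like cells from E13.0 onward and higher at E11.5. Its fibroblast-like mean was 3.34 TPM at E11.5, 11 ± 2.34 TPM at E13.0 (SD, n = 3 plates), 13.3 ± 0.527 TPM at E14.0 (n = 2), 26.9 ± 25.6 TPM at E15.0 (n = 4) and 63.9 ± 10.8 TPM at E17.0 (n = 3). The epithelial mean was 13.53-fold higher at E14.0 and 2.35-fold higher at E17.0, without overlap of plates at either. The mean difference of -1.91 (SE 0.75) was not called over the 5 stages (adjusted p = 0.121 by limma). It was called by limma without E11.5, the stage whose sort differed (-2.76, adjusted p = 0.00811), in a fit that called 7087 of 24393 genes. With plates as units and the plate as a block it was called as well (-2.46, adjusted p = 0.000185 by limma). This plate fit takes plates of 1 stage as independent and called 11921 of 24308 genes. Tgfb3 was lower in fibroblast-like cells from E13.0 to E15.0 and higher at E11.5 and E17.0, with a fibroblast-like mean of 5.66 TPM at E11.5, 6.81 TPM at E13.0, 8.83 TPM at E14.0, 16.8 TPM at E15.0 and 39.05 TPM at E17.0. Its plates were below the epithelial ones from E13.0 to E15.0 and overlapped with them at E17.0, and its mean difference of -0.89 (SE 0.63) was not called (adjusted p = 0.352). It was called in the same plate fit, with plates as units and the plate as a block (-1.18, adjusted p = 0.0155 by limma).

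In this comparison 3 of the 6 genes were called, Tgfb1 in one direction and Tgfbr2 and Tgfbr3 in the other. Over all 24166 genes 5152 were called (21.3%), 3219 of them higher in fibroblast-like cells. The median difference over all genes was 0.10, and -0.02 under median-of-ratios scaling, a shift that moved the share of called genes that were higher in fibroblast-like cells from 62.5 to 47.4% and kept the same 3 members called. A change of the class difference with day, a test added after the levels were seen, was called for 0 of 24166 genes (percent called 0), with 3364 genes and 1 of the 6, Tgfbr1, at an unadjusted p under 0.05 (adjusted p = 0.332 by limma).

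**Figure D3:**
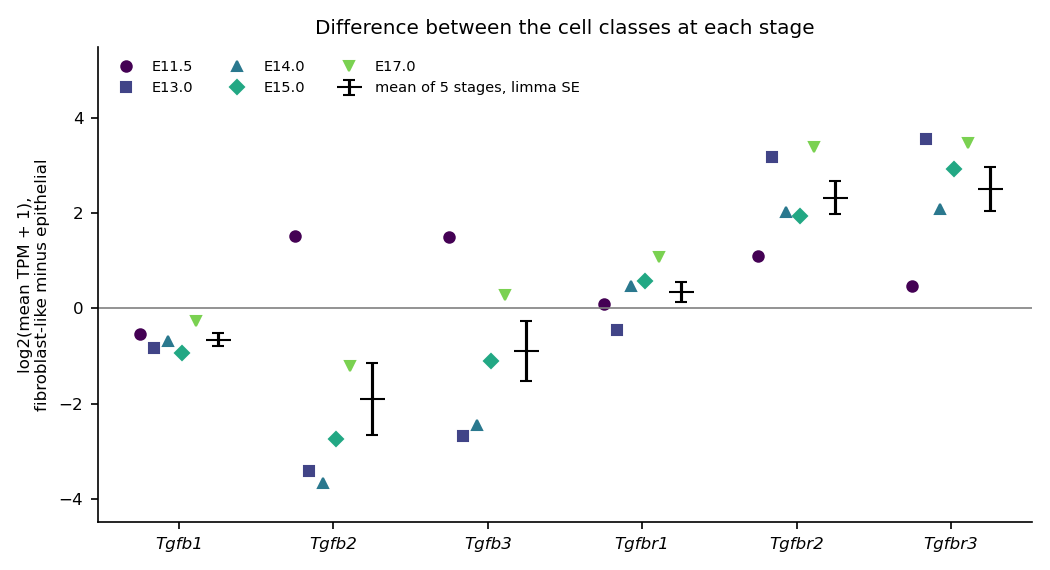
Difference in log2(mean TPM + 1) between fibroblast-like and epithelial cells (vertical axis, above 0 is higher in fibroblast-like cells) for each gene (horizontal axis); coloured symbols are stages and the black bar is the mean over 5 stages with its limma standard error. Tgfbr2 and Tgfbr3 lie above 0 and Tgfb1 below 0 at all 5 stages, while Tgfb2 is above 0 at E11.5 alone and Tgfb3 at E11.5 and E17.0.

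Sox9, a transcription factor of the future stem cell compartment of the follicle, went with Tgfb3 from cell to cell. Within a plate, the partial Spearman correlation over epithelial cells, with the genes at 1 TPM or more in each cell as covariate, was computed for the 15 plates with at least 20 epithelial cells (995 cells). Tgfb3 had a positive correlation in 14 of 15 plates, with a median of 0.42, and the lowest plate was at -0.00365. It was -0.00365 at E11.5, then 0.26 at E12.0 and also 0.26 at E13.0 (1 plate, 23 cells), and 0.43 at E13.5. It reached 0.54 at E14.0, and was 0.35 at E15.0 and then 0.51 at E17.0. Over the 7 stages the mean Fisher z was 0.36 (SE 0.06, adjusted p = 0.0230 by limma), and 1 of the 6 genes was called against 188 of 28747 over all genes (0.654%). The call was lost without E13.5, E14.0, E15.0 or E17.0 (adjusted p = 0.0954, 0.136, 0.119 and 0.0925), fits in which limma called 0 genes and 3383 to 4156 genes had an unadjusted p under 0.05.

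At E17.0 epithelial cells with Sox9 at 10 TPM or more held 42.3 TPM of Tgfb3 on average (127 cells) and the others 6.79 TPM (53 cells). At E14.0 these means were 68.4 TPM (105 cells) and 12.03 TPM (39 cells). At E12.0, before Tgfb3 had reached its later level, they were 3.86 TPM (89 cells) and 3.099 TPM (178 cells). The median number of genes detected was 16689 in the former and 16047 in the latter cells at E17.0. With this split in place of the correlation the mean log2 difference of Tgfb3 was 1.63 (adjusted p = 0.0876 by limma) and 0 of 28747 genes were called, with 4912 at an unadjusted p under 0.05.

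Tgfb2 followed Sox9 from E13.5 onward, without passing the test over all stages. Its correlation was 0.06, 0.01 and 0.04 at E11.5, E12.0 and E13.0 (1 plate, 23 cells), and at the 4 later stages 0.48, 0.52, 0.34 and 0.38 in order of time. Only 14.8% of epithelial cells at E11.5 and 61.05% at E12.0 held Tgfb2 at 1 TPM or more, which limits what the early values can show. The mean z was 0.28 (SE 0.07, adjusted p = 0.0645 by limma), and it was called when E11.5, E12.0 or E13.0 was left out (adjusted p = 0.0486, 0.0415 and 0.0303). Those 3 fits called 460, 399 and 507 of 28747 genes, against 188 with all stages, and each left out a stage where Tgfb2 had a correlation near 0. At E14.0 Tgfb2 averaged 227 TPM in cells with Sox9 at 10 TPM or more and 51.96 TPM in the others, while at E12.0 the order was the other way, 6.02 and 11.6 TPM. None of the other 4 genes was called. Tgfb1 had a mean z of -0.12 (adjusted p = 0.249), Tgfbr1 of -0.06 (0.570), Tgfbr2 of -0.09 (0.352) and Tgfbr3 of 0.01 (0.980). Tgfbr3 moved from 0.29 at E11.5 to -0.47 at E13.5 and 0.17 at E17.0. Tgfbr1 stood at -0.12, 0.13, -0.14, 0.03, 0.08, -0.23 and -0.18 from E11.5 to E17.0, in order of time.

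**Figure D4:**
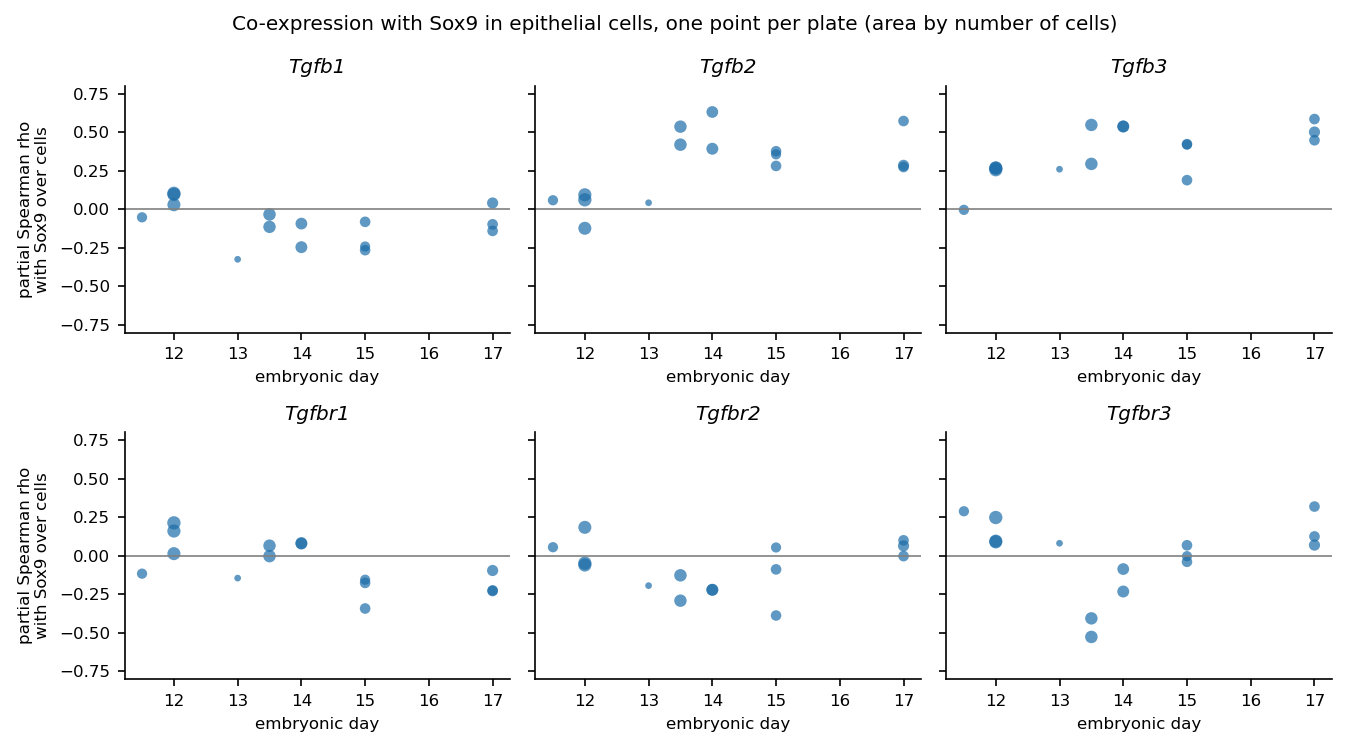
Partial Spearman correlation with Sox9 over the epithelial cells of a plate (vertical axis) by embryonic day (horizontal axis) for each gene; each point is a plate, with an area that grows with its number of cells. Tgfb3 is above 0 in 14 of 15 plates, and Tgfb2 lies near 0 up to E13.0 and above it later. Each receptor is above 0 on some plates and below 0 on others, with signs that differ by stage.

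In fibroblast-like cells the correlation with Sox9 could be computed on 5 plates of E13.0 and E15.0 (303 cells) and is given as a description. Tgfbr1 was positive in 5 of 5 plates (median 0.27) and Tgfbr3 negative in 5 of 5 (median -0.31). Tgfb3, which went with Sox9 in the epithelium, was positive in 4 of 5 plates with a median of 0.17. Sox9 itself was lower in these cells, with a mean of 5.19 TPM at E13.0 and 8.88 TPM at E15.0.

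Epithelial cells with Tgfbr2 at 10 TPM or more held Tgfb2 and Tgfb3 at that level less often than the other epithelial cells at each stage from E13.5 onward, counted over cells and not tested. Over the 15 plates, the median correlation was -0.15 between Tgfb2 and Tgfbr2 and -0.20 between Tgfb3 and Tgfbr2, and it was 0.43 between Tgfb2 and Tgfb3. Among these plates are those of E11.5 to E13.0, stages at which 0 of 374 epithelial cells reached 10 TPM of Tgfbr2. Tgfbr2 and Tgfbr3 went together in 15 of 15 plates, from 0.05 to 0.70. These correlations over cells share the library and plate of each cell and are given without a test.

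At E14.0, 35 of 144 epithelial cells held Tgfbr2 at 10 TPM or more. Of these 35 cells 2.86% held Tgfb3 at 10 TPM or more, against 68.8% of the other 109 cells. Their mean of Tgfb3 was 2.41 TPM against 69.4 TPM, and their mean of Tgfb2 34.8 TPM against 226 TPM. Tgfbr3, in turn, was at 10 TPM or more in 91.4% of them and in 19.3% of the others. The same cells held more Krt5 (median 914 against 579 TPM) and Krt15 (563 against 385 TPM) and less Krt17 (5.17 against 418 TPM), keratins of basal cells and of the growing follicle that were named after their values were seen. At E15.0 38 of 178 cells held Tgfbr2 at this level, and 71.1% of them held Tgfb2 at 10 TPM or more against 93.6% of the others, while 21.1% against 74.3% held Tgfb3. At E17.0, of 32 cells with Tgfbr2 at 10 TPM or more 40.6% also held Tgfb3 at that level, against 60.1% of the others, and their median Krt17 was 773 TPM against 505 TPM.

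Markers of other cell types were summed in these cells stage by stage, since all 127 cells with Tgfbr2 at 10 TPM or more came from E13.5 to E17.0, a comparison added after the data were seen. The 8 fibroblast markers had a lower median sum in the cells with Tgfbr2 than in the others at 4 of 4 stages, from 10.8 against 14.99 TPM at E13.5 to 28.1 against 140 TPM at E17.0. The 10 basal epithelial markers had a higher one at 4 of 4 stages, such as 4648 against 2059 TPM at E14.0. The 4 Merkel markers, of the touch-sensing cells of the epidermis, were also higher at 4 of 4 stages, by 1.29 against 1.08 TPM at E13.5, 1.87 against 0.945 TPM at E14.0 and 1.69 against 0.955 TPM at E15.0, and at E17.0 by 15.9 against 0.958 TPM, with 2 of the 4 at a median of 0 at each stage. The mural and muscle markers summed to less in the cells with Tgfbr2 from E13.5 to E15.0 and to more at E17.0, 48.96 against 5.86 TPM, with 4 of the 6 at a median of 0 at E17.0. The endothelial markers likewise summed to less from E13.5 to E15.0 and to more at E17.0, 5.26 against 2.99 TPM, with 3 of the 6 at a median of 0 there. The Schwann and neural markers summed to more at 3 of 4 stages, 48.3 against 38.6 TPM at E13.5 and 25.6 against 23.96 TPM at E17.0, and to 26.8 against 27.5 TPM at E14.0. Melanocyte markers were lower at 4 of 4 stages, and dermal condensate and immune markers were higher at 1 of 4 each. At E17.0 the median sums were higher in the cells with Tgfbr2 for the basal, Merkel, Schwann and neural, mural and muscle, and endothelial lists. They were lower for the fibroblast, melanocyte, dermal condensate and immune lists. The part of these lists in the results on Tgfbr2 was not tested.

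**Figure D5:**
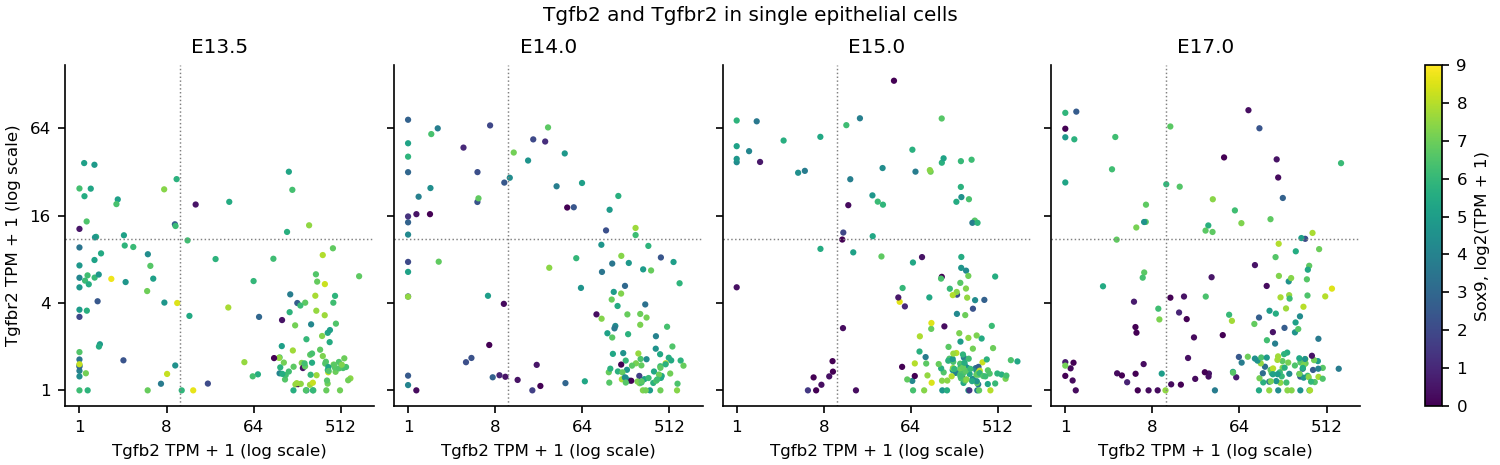
Tgfb2 (horizontal) and Tgfbr2 (vertical) in single epithelial cells at 4 stages, both as TPM + 1 on log axes; each point is a cell, its colour is log2(TPM + 1) of Sox9, and dotted lines mark 10 TPM. Cells rich in Tgfb2 gather at the lower right and cells with more Tgfbr2 spread across the upper part at all levels of Tgfb2, and 16 of 144 cells at E14.0 are above 10 TPM for both.

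Genes whose level over the 12 stage and class means was most like that of each member were named by Pearson correlation of log2(mean TPM + 1) among 6603 genes, as a description. For Tgfb2 they were Mcam (r = 0.98), Egr3 (0.97) and Atxn1 (0.97), and for Tgfb3 they were Tgfb2 itself (0.95), Mcam (0.95) and Egr3 (0.95). Tgfb1 was most like Kremen1 (0.90), Gadd45b (0.89) and Atg7 (0.88), and Tgfbr1 most like Sipa1l2 (0.88), Sri (0.88) and Pxdn (0.87). Tgfbr2 was most like Tacc1 (0.98), Wwtr1 (0.98) and Crlf3 (0.96), and Tgfbr3 most like Sfrp2 (0.93), Cdc7 (0.92) and Dennd5b (0.91). From cell to cell within epithelial plates, a view added after the data were seen, Nfatc1, a transcription factor of follicle stem cells, ranked first for Tgfb3 (correlation 0.55) and second for Tgfb2 (0.49). Elmo1 and Pthlh, which encodes a parathyroid hormone-like signal, were among the first 6 genes of both ligands, whereas Itga3 (0.34) and Itgb1 (0.33) were among the first 6 for Tgfbr2 and Anxa2 (0.49) was the first for Tgfbr3.

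Genes of the same pathway were read from 5 lists of 53 genes in all, against the 1.87%, 21.3% and 0.654% called over all genes in the respective tests. Of 14 genes for latency and activation, 13 could be tested for a trend and 4 rose with day in the epithelium, Ltbp2, Ltbp3, Ltbp4 and Furin. The first 3 encode latent Tgf-beta binding proteins and Furin the protease that cuts the proprotein. Ltbp3 had a mean of 1.75 TPM at E12.0 and of 35.4 TPM at E17.0 (slope 0.66, SE 0.07, adjusted p = 0.0122 by limma). Furin stood at 38.4 TPM at E12.0 and at 195 TPM at E17.0 (slope 0.43, SE 0.07, adjusted p = 0.0283). The median slope of the 13 genes was 0.28, against -0.01 over all genes.

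Between the classes, 6 of the 14 were higher in fibroblast-like cells, Ltbp1, Ltbp3, Ltbp4, Lrrc32, Fbn1 and Fbn2, and Itgb6 and Furin were lower. Fbn2, a fibrillin that anchors latent complexes in the matrix, averaged 105 TPM over the 5 fibroblast-like stage means and 6.40 TPM over the 7 epithelial ones (difference 4.19, SE 0.42, adjusted p = 0.00171 by limma). Itgb6, a chain of an integrin that releases active ligand, was at 13.6 TPM in epithelial and 0.147 TPM in fibroblast-like cells (-3.55, SE 0.31, adjusted p = 0.00105). Itgb8, the chain of another such integrin, was the gene of this list called for co-expression with Sox9 (mean z 0.42, SE 0.06, adjusted p = 0.0205).

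Among 7 other receptors, Acvr1 rose with day in the epithelium (slope 0.34, adjusted p = 0.0196 by limma) and Acvr2a, with 39.2 TPM at E11.5 and only 7.41 TPM at E17.0, fell (-0.42, adjusted p = 0.0194). Eng and Acvr1 were higher in fibroblast-like cells and Acvr1b and Acvr2b in epithelial cells. Acvr1b, an activin type I receptor that shares the Smads of Tgf-beta, had the clearest of these differences (29.9 TPM in epithelial and 5.35 TPM in fibroblast-like cells, difference -2.36, SE 0.15, adjusted p = 0.000317) and was also called for co-expression with Sox9 (mean z 0.24, adjusted p = 0.0324). Eng encodes endoglin, a coreceptor of endothelial cells, and averaged 16.1 TPM in fibroblast-like cells, in which the 6 endothelial markers summed to a median of 3.21 to 7.26 TPM per stage and Cdh5 had a median of 0.

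None of the 6 genes of signal transduction was called in any of the 3 tests. Smad4, Smad3, Map3k7 and Smad2 had epithelial means of 78.3, 63.6, 49.9 and 18.96 TPM and fibroblast-like means of 89.5, 49.3, 58.8 and 21.2 TPM. Of the 12 negative regulators none was called for a trend or with Sox9, and Tgif1 and Tgif2, corepressors of Smads, were lower in fibroblast-like cells (-0.83, adjusted p = 0.0181, and -0.50, adjusted p = 0.00727, by limma). Ski, another Smad corepressor, averaged 51.8 TPM in epithelial and 43.4 TPM in fibroblast-like cells and was not called (adjusted p = 0.224).

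Of 14 genes listed as targets, 11 could be tested for a trend and 2 rose, Col1a1 and Col1a2, the chains of collagen I. Col1a2 had an epithelial mean of 2.72 TPM at E12.0 and of 77.2 TPM at E17.0 (slope 0.93, SE 0.14, adjusted p = 0.0268 by limma). The 8 fibroblast markers, of which Col1a1 and Col1a2 are 2, summed to a median of 9.09 TPM in the epithelial cells of the lowest stage and 90.7 TPM in those of the highest, and their part in the result was not tested. Postn, Snai1, Col1a1 and Col1a2 were higher in fibroblast-like cells, among them Postn, which encodes periostin, with 123 TPM over the 5 fibroblast-like and 18.3 TPM over the 7 epithelial stage means (difference 2.33, SE 0.20, adjusted p = 0.00100 by limma). Tgfbi and Col1a2 were called for co-expression with Sox9 (mean z 0.29 and 0.30, adjusted p = 0.0366 and 0.0482). Fn1, Sox4, Snai2 and Cdkn1a, the other targets with the highest epithelial means, passed none of the 3 tests, and Cdkn2b was too low to be tested. Over the 5 lists 7 genes rose and 1 fell of 49 tested for a trend, 12 were higher and 7 lower of 52 between the classes, and 4 of 51 were called with Sox9, all positive.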

How the data were processed

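The authors deposited 1 table of TPM values per gene symbol and cell, whose columns total 991213 to 999516; how TPM was computed is not given in the sources used here. The submitters' processing notes name the build mm10 and the tools HISAT2 2.0.4, featureCounts (Subread 1.5.0) and bcl2fastq 1.0, and the annotation release and the strand setting are not given in the sources used here. Of 1666 labelled cells, 52 labelled low in quality have no column and are not analysed here. The members and lists were chosen with earlier results of these data known.

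Cells were classed by the rule in the report. Doublets were not called, since cells were sorted singly. Means per plate (at least 5 cells) were averaged to stage means (at least 10 cells). Limma 3.58.1 (R 4.3.3) with a mean-variance trend and 2-sided moderated tests was run on log2(mean TPM + 1) where the mean over the samples of a fit reached 1 TPM. The trend fit used day, the class fit used stage as a block, and the Sox9 fit used Fisher z per stage for genes at 1 TPM in at least 10% of epithelial cells, without the trend. Stages are the units; p-values over stages measure the spread between stages, since embryos are not named. The trend, class and Sox9 fits were checked on simulated data with known answers, and the test of a change of the class difference with day was not. The simulated noise was independent between genes, so that check does not cover shifts that many genes of a stage share. Intervals for shares are exact Clopper-Pearson 95% intervals and cover counting error only; TPM keeps no depth, so the precision of a single cell's value is unknown. Stage medians of the genes detected per cell ran from 16601 to 19468.5. Named genes are the members, Sox9, the class-rule genes, pathway genes that pass a test or up to 4 examples per list with the highest mean, and the 3 genes most like each member. Alternatives covered the pseudocount (0.1 and 5 TPM), the filter on low values (none and 10 TPM), the mean of log values, pooled cells, rescaling without 215 mitochondrial, ribosomal and similar RNAs, median-of-ratios scaling, a stricter class rule (epithelial: Krt5 at 50 TPM or more, Col3a1 and Col1a1 under 10 TPM; fibroblast-like: Col3a1 at 200 TPM or more, Krt5 and Trp63 under 1 TPM), and leaving out each stage and plate. Some genes of the lists are not reported here by name, though counts over lists include them.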

Additional observations from a re-analysis of the deposited data

Results flagged for a closer look

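Among the groups of 4 plates, all at E15.0, 1 of 12 sets of plate means held a plate far from the others, and chance marks about 1 in 20 such sets. Tgfb2 in fibroblast-like cells averaged 65.1 TPM on plate 1 of E15.0, against 10.7, 13.9 and 18.1 TPM on the other plates, and the gap to the nearest plate was 0.864 of the whole range. Plate 1 held 73 fibroblast-like and 10 epithelial cells. It carries a plate code that also occurs at E13.0, while the codes of the other 3 plates also occur at E17.0, and the part of this in the result was not tested. Without it the stage mean was 14.2 TPM in place of 26.9 TPM.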

How the results depend on the processing

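Over 533 member tests under an alternative, 501 kept their direction and side of the threshold, 11 gained a call, 12 lost one and 9 changed sign. All 9 were the Sox9 co-expression of Tgfbr3, whose mean z of 0.01 went to -0.021 without the covariate and ranged from -0.043 to 0.091 with 1 stage or plate left out, 8 of these below 0, and none was called. The number of members called for a trend was 1 with the rank of the stage and 0 otherwise. Between the classes it was 6 with plates as units and the plate as a block, in a fit that called 11921 of 24308 genes. That fit pairs the classes within plates and adds Tgfb2, Tgfb3 and Tgfbr1. The number of members was 1 to 4 with a stage left out and 2 to 3 with a plate left out. For Sox9 it was 0 with Sox9 split at 10 TPM, 2 under the stricter class rule, 2 among genes in 25% of cells and 0 to 2 with a stage or plate left out. The cause was not tested. Counts over all genes moved by more than 1.5 times: for the trend to 30 without a filter, 729 with means of log2 values, 1412 with ranks and 39 to 408 without a stage, for the classes to 2793 at 10 TPM, 2267 to 7087 without a stage and 2391 to 5132 without a plate, and for Sox9 to 284 with partial Pearson correlation, 90 and 362 at the other shares of cells, 0 to 507 without a stage and 135 to 314 without a plate. Of 72 levels, all stayed within 1.5-fold under rescaling (median ratio 1.41) and the stricter rule, and 71 with cells pooled, where Tgfb2 in fibroblast-like cells at E15.0 moved by 1.62. No paired analysis was possible between stages because the labels give no replicate numbers, and only 4 of 14 plate codes recur, among 3 of the 7 stages, without a label that says what they share. TPM keeps no depth, so low values of single cells could not be weighed by their reads.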

Other observations

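Of the 162 cells in neither class, some held at least 3 markers of another cell type at 10 TPM or more, and their values are given with no test. In 46 cells with endothelial markers, from 6 stages and 12 plates, the median was 104 TPM for Tgfb1, 93.5 TPM for Tgfbr2 and 241 TPM for Eng, the coreceptor endoglin, whereas Tgfb2 and Tgfb3 stood at 4.26 and 0.25 TPM. These cells were found although the sort was set against CD31. In 10 cells with immune markers Tgfb1 had a median of 143 TPM, Tgfbr2 of 28.4 TPM and Tgfb2 of 0. In 43 cells with Schwann and neural markers Tgfb1 was at 4.32 TPM, Tgfbr2 at 14.5 TPM and Tgfb2 at 8.53 TPM. In 8 cells with mural and muscle markers Tgfb1 was at 79.5 TPM and Tgfb2 at 28.5 TPM, and in 11 cells with Merkel markers they were at 22.9 and 0.813 TPM. Over all epithelial cells the medians of Tgfb1 and Tgfbr2 were 15.5 and 0.671 TPM, and over all fibroblast-like cells 4.34 and 18.8 TPM.

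Fibroblast-like cells differed in the receptors by their level of Sox2, a transcription factor of the dermal condensate and papilla, a split chosen after the data were seen and given without a test. Tgfbr1 had a median of 45.4 TPM in 75 cells with Sox2 at 10 TPM or more and 27.2 TPM in the other 135 at E13.0, 56.7 and 28 TPM at E15.0 (35 and 91 cells), and 66.7 and 43.2 TPM at E17.0 (25 and 21 cells), and its mean was higher in the former cells on 3 of 3, 4 of 4 and 3 of 3 plates. Tgfbr2 stood the other way at E17.0, at 36.7 and 136 TPM, and was lower on 3 of 3 plates. It differed little at E13.0, 15.6 against 16.3 TPM, and at E15.0, 21.4 against 24.1 TPM, with a higher mean in the cells with Sox2 on 1 of 3 and 1 of 4 plates. Tgfbr3 was lower in the cells with Sox2 at E13.0, 47.1 against 77.4 TPM, and at E15.0, 17.7 against 32.8 TPM, and higher at E17.0, 33.4 against 13.1 TPM.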
